A study of Mus musculus with 9 samples.

Results

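The 9 genes described here encode the R-spondin arm of Wnt signalling: 3 Lgr receptors (Lgr4, Lgr5 and Lgr6), 4 R-spondin ligands (Rspo1, Rspo2, Rspo3 and Rspo4) and 2 membrane ubiquitin ligases (Znrf3 and Rnf43). They were selected by gene name from the 57180 genes of the deposited mouse hippocampus expression table, in all 9 libraries. The set was chosen on the readout itself, because Lgr6 was about 5-fold higher in BTBR mice, so levels in BTBR mice against C57BL/6J mice are given for the 9 genes as a description without a test. The set was tested only in treated against untreated BTBR mice.

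The libraries came from 3 groups of 3 male mice. MAN@SKI II mice were of the strain BTBR T+ Itpr3tf/J, which carries the tf allele of Itpr3, and received a brain-targeted nanomicelle carrying an inhibitor of sphingosine 1-phosphate (S1P), at 40 mg/kg per day by tail vein for 7 days. Model mice were the same strain, with the same allele, given vehicle, and Con mice were C57BL/6J given vehicle. All mice were 5 weeks old at the start and 6 weeks old when the hippocampus was taken, after behavioural tests. No group received an empty nanomicelle, so the carrier and the inhibitor cannot be told apart, and Model and Con differ by the whole strain background. MAN@SKI II and Con differ in both strain and treatment, which that comparison cannot tell apart. Each library held 14751054 to 18827093 counts, for which 3 counts correspond to 0.159 to 0.203 CPM (counts scaled to the depth of the library). Mitochondrial genes took 9.63% of the counts of MAN@SKI II replicate 2 and 6.26% to 7.15% of the other 8 libraries. All 10 hippocampal neuron markers examined were detected in every library, with a summed level of 2162 to 2462 CPM in MAN@SKI II, 2397 to 2511 CPM in Model and 2373 to 2522 CPM in Con libraries.

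Wnt proteins signal by bringing together a Frizzled receptor and the co-receptor Lrp5 or Lrp6, which stabilises beta-catenin. Znrf3 and Rnf43 are membrane E3 ligases that mark Frizzled proteins for removal and so lower the number of Wnt receptors on a cell. R-spondins bind an Lgr receptor together with Znrf3 or Rnf43, which clears the ligase from the membrane and raises the response to Wnt. Lgr5 is best known as a stem cell marker in the intestine and other epithelia, Lgr6 as a marker of stem cells of the hair follicle, and Lgr4 is expressed broadly.

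Lgr6 lies on the minus strand of chromosome 1 at 134911039-135033014 and Lgr4 on the plus strand of chromosome 2 at 109747992-109844602 (GRCm39, the build named in the submitters' processing notes). Both promoters are shown because these are the Lgr receptor with the large strain difference and the most abundant member of the set. They are shown as in the reference build, and the sequence of the BTBR strain was not examined. The windows run from 250 bases before to 50 bases after the RefSeq start on GRCm38.p6, at chr1:135105227-135105526 (minus strand) and chr2:109917397-109917696 (plus strand), written 5′ to 3′ with each CpG dinucleotide in capitals.
Lgr6: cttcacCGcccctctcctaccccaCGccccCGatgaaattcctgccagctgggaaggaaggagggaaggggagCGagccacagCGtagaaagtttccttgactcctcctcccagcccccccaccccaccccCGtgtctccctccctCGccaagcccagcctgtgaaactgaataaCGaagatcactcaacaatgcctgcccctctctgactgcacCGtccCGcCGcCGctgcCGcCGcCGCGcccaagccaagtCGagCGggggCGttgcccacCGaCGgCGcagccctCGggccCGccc
Lgr4: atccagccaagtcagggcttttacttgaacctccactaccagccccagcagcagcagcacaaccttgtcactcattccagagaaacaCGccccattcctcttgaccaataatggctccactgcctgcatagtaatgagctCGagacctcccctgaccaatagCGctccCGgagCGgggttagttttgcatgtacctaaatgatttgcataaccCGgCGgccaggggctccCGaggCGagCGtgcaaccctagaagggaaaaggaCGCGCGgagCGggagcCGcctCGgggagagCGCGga
The Lgr6 window held 24 CpG dinucleotides at 67.7% G and C, and the Lgr4 window 18 at 58.3%, against a median of 7 and 52.7% over all 32851 mouse promoter windows. Of all windows, 80.0% held fewer CpG dinucleotides than the Lgr6 window and 70.3% fewer than the Lgr4 window. The RefSeq table matched 5 of the 9 genes with 6 windows, and Lgr5, Rspo2, Rspo3 and Znrf3 had no entry. Of the 6 windows, 0 held CTTTGAA or the variants CTTTGAT and CTTTGTA, or the last variant CTTTGTT, the core letters bound by the TCF/LEF factors that act with beta-catenin, on either strand, while 16.9% of all windows did. These letters mark a possible match only, and an absence covers this window alone.

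Lgr6 had the largest log2 fold change between the strains of the 8 tested members. Lgr6 had 20.0, 21.1 and 22.2 CPM in MAN@SKI II libraries, 19.4, 17.2 and 16.1 CPM in Model libraries, and 3.45, 3.54 and 3.62 CPM in Con libraries (replicates 1 to 3). All 6 BTBR libraries lay far above the 3 C57BL/6J libraries, with no overlap. In bulk tissue, fewer cells of a type and less RNA per cell cannot be told apart for any of these genes. Behind these levels stood 289 to 348 counts in each BTBR library and 53 to 68 counts in each Con library. The Model mean was 17.6 ± 1.65 CPM and the Con mean 3.54 ± 0.0876 CPM (SD, n = 3 each), a ratio of 4.97. The log2 fold change of Model against Con was 2.31 ± 0.11 (SE), the 86th largest increase of the 17550 genes that passed the filter on low counts. MAN@SKI II libraries averaged 21.1 ± 1.10 CPM (SD, n = 3), and their log2 fold change against the same Con libraries was 2.58 ± 0.11 (SE). Leaving out any 1 library kept the Lgr6 log2 fold change of Model against Con between 2.23 and 2.37. These values describe the difference for which the set was chosen and are not a test of it.

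Lgr4 and Lgr5 overlapped between Model and Con. Lgr4 had 31.5, 33.6 and 31.3 CPM in MAN@SKI II libraries, 35.2, 35.3 and 31.9 CPM in Model libraries, and 33.8, 35.6 and 37.3 CPM in Con libraries. The Model and Con ranges overlapped, with a log2 fold change of -0.06 ± 0.08 (SE), and the MAN@SKI II range lay just below that of Con, with a log2 fold change of -0.15 ± 0.08 (SE). Lgr5, the intestinal stem cell receptor, was scarce, at 2.25, 3.25 and 3.07 CPM in MAN@SKI II libraries, 3.00, 2.15 and 3.68 CPM in Model and 2.15, 2.89 and 1.17 CPM in Con libraries. The 3 Lgr5 ranges overlapped, and its log2 fold change of Model against Con was 0.52 ± 0.32 (SE), on 22 to 66 counts per library.

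**Figure D1:**
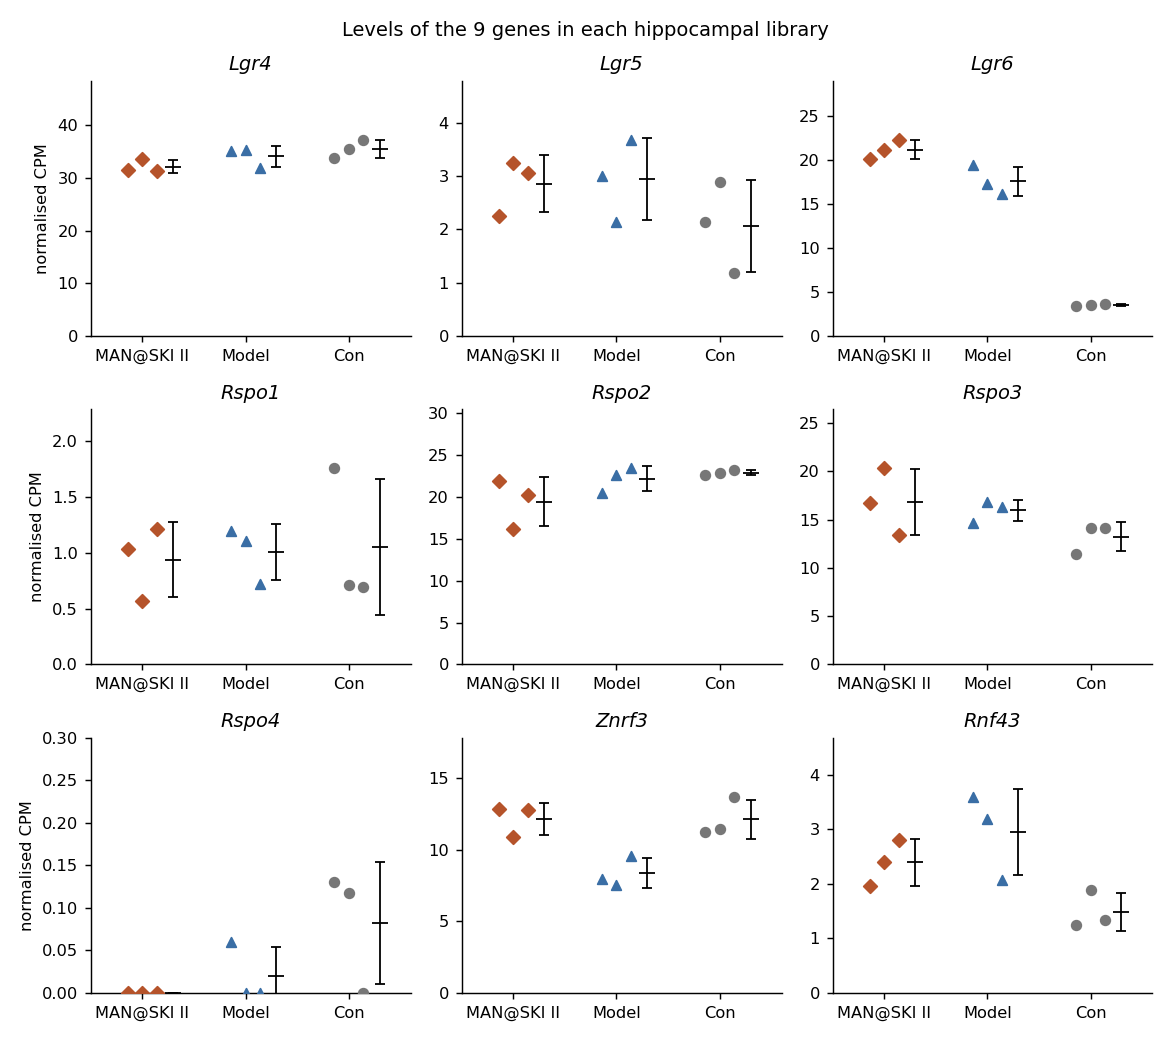
Normalised CPM (vertical axes, linear, starting at 0) of each of the 9 genes in the 3 MAN@SKI II, 3 Model and 3 Con libraries, left to right, 1 point per library, with the group mean and SD in black beside the points. Lgr6 lies between 16.1 and 22.2 CPM in the BTBR libraries and between 3.45 and 3.62 CPM in Con, and Znrf3 is lowest in the Model libraries.

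Expressed per gene length, with the authors' FPKM (fragments per kilobase of transcript, scaled to sequencing depth), the make-up of the Lgr receptors differed between strains. Lgr6 made up 30.1%, 29.6% and 32.2% of the summed Lgr FPKM in MAN@SKI II libraries, 27.0%, 24.9% and 25.1% in Model libraries, and 6.48%, 6.27% and 6.28% in Con libraries. Lgr4 made up 64.9% to 67.7% in MAN@SKI II, 70.3% to 73.0% in Model and 90.4% to 92.4% in Con libraries. These shares depend on the lengths behind the FPKM, 6085 bases for Lgr4, 13274 for Lgr5 and 8710 for Lgr6. The summed Lgr FPKM was 7.67 to 7.97 in MAN@SKI II, 7.43 to 8.25 in Model and 6.19 to 6.60 in Con libraries, so Lgr4 remained the most abundant receptor in every library.

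Among the R-spondins, Rspo2 and Rspo3 were the abundant ligands. Rspo2 had 21.9, 16.2 and 20.3 CPM in MAN@SKI II libraries, 20.5, 22.7 and 23.4 CPM in Model libraries, and 22.6, 22.8 and 23.2 CPM in Con libraries. Model and Con overlapped for Rspo2 (log2 fold change -0.05 ± 0.11, SE), and all 3 MAN@SKI II libraries lay below the 3 Con libraries (-0.23 ± 0.11, SE). Without MAN@SKI II replicate 2, the library with the high mitochondrial share and the lowest Rspo2, the difference from Con was -0.12. Rspo3 had 16.7, 20.3 and 13.4 CPM in MAN@SKI II libraries, 14.7, 16.8 and 16.3 CPM in Model libraries, and 11.5, 14.1 and 14.1 CPM in Con libraries. For Rspo3 the lowest Model library, at 14.7 CPM, was just above the highest Con library, at 14.1 CPM (log2 fold change 0.27 ± 0.15, SE), while MAN@SKI II and Con overlapped (0.34 ± 0.15, SE).

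Rspo1 and Rspo4 were near the limit of these libraries. Rspo1 had 1.04, 0.57 and 1.21 CPM in MAN@SKI II libraries, 1.20, 1.10 and 0.72 CPM in Model, and 1.76, 0.71 and 0.69 CPM in Con libraries, on 8 to 27 counts each. The highest value was that of Con replicate 1, and without that library the Rspo1 log2 fold change of Model against Con moved to 0.52, against -0.04 ± 0.43 (SE) with it. Rspo4 had 0, 0 and 0 counts in MAN@SKI II, 1, 0 and 0 counts in Model, and 2, 2 and 0 counts in Con libraries, under the 3 counts taken as the floor in each, and was not tested. No fold is given for Rspo4.

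In Model against Con, Znrf3 was lower and Rnf43 higher. Both had groups that did not overlap, as had 32.3% of all genes. Znrf3 had 12.8, 10.9 and 12.8 CPM in MAN@SKI II libraries, 7.97, 7.54 and 9.53 CPM in Model libraries, and 11.3, 11.4 and 13.7 CPM in Con libraries. All 3 Model libraries lay below the other 6. The Znrf3 log2 fold change was -0.54 ± 0.13 (SE) for Model against Con and 0.00 ± 0.13 (SE) for MAN@SKI II against Con. Rnf43, its close relative, had 1.96, 2.40 and 2.81 CPM in MAN@SKI II libraries, 3.60, 3.19 and 2.06 CPM in Model libraries, and 1.24, 1.89 and 1.33 CPM in Con libraries. For Rnf43 every BTBR library was above every Con library, with log2 fold changes of 0.98 ± 0.27 (SE) for Model against Con and 0.68 ± 0.28 (SE) for MAN@SKI II against Con, on 19 to 60 counts per library.

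The order of the genes by FPKM was Lgr4, Rspo3, Lgr6, Rspo2, Znrf3, Rspo1, Rnf43, Lgr5 and Rspo4 in MAN@SKI II libraries, and Lgr4, Rspo3, Rspo2, Lgr6, Znrf3, Rspo1, Rnf43, Lgr5 and Rspo4 in Model libraries. In Con libraries it was Lgr4, Rspo3, Rspo2, Znrf3, Rspo1, Lgr6, Lgr5, Rnf43 and Rspo4. The order depends on the lengths behind the FPKM, such as 8568 bases for Rspo2 and 3764 bases for Rspo3. By mean CPM, Rspo2 was above Rspo3 in every group, at 22.9 against 13.2 CPM in Con libraries. Rspo1 was below Lgr5 and Rnf43 by mean CPM in every group, at 1.05 against 2.07 and 1.49 CPM in Con. Lgr6 was above Rspo3 by mean CPM in both BTBR groups, and above Rspo1 in Con, at 3.54 against 1.05 CPM. Lgr6 averaged 2.40 ± 0.144 FPKM in MAN@SKI II, 2.02 ± 0.186 FPKM in Model and 0.408 ± 0.00665 FPKM in Con libraries (SD, n = 3 each), which put it above Znrf3 in both BTBR groups and below Znrf3 in Con. Neighbours in the order whose libraries overlapped were Lgr6 and Rspo2 in MAN@SKI II, Rspo1 and Rnf43 as well as Rnf43 and Lgr5 in MAN@SKI II and in Model, and Rspo1 and Lgr6 as well as Lgr5 and Rnf43 in Con. The extremes were Lgr4, at 5.22 ± 0.0643 FPKM in MAN@SKI II, 5.62 ± 0.294 FPKM in Model and 5.87 ± 0.238 FPKM in Con libraries, and Rspo4, at 0 to 0.0556 FPKM in every library.

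**Figure D2:**
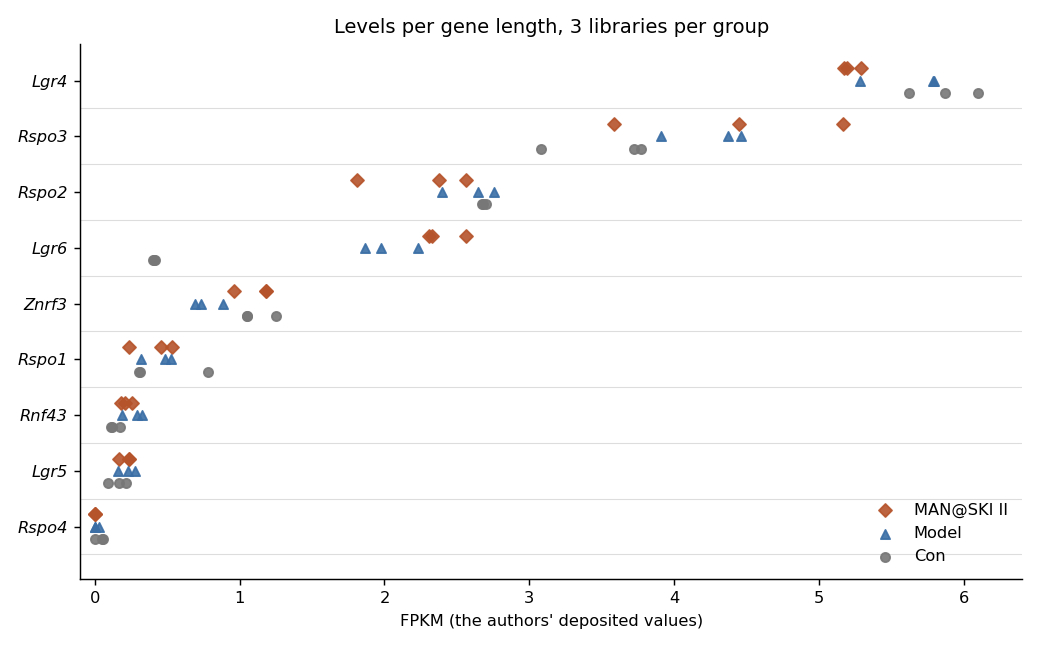
The authors' FPKM (horizontal axis, linear) of the 9 genes, ordered by their mean over the groups, with 1 point per library and the MAN@SKI II, Model and Con libraries from top to bottom within each gene. Lgr4 and Rspo3 lead in every group, and Lgr6 sits at about 0.408 FPKM in Con and at 1.87 to 2.57 FPKM in the BTBR libraries.

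Treatment within BTBR mice was the comparison in which the set could be tested. No member passed an adjusted p of 0.05 (edgeR's quasi-likelihood test with Benjamini-Hochberg adjustment over 17550 genes): 0 of 8 tested members, beside 0% of all genes, and 0 of 8 by limma-voom and by DESeq2. At an unadjusted p under 0.05 stood 2 of 8 members, Lgr6 and Znrf3, beside 4.82% of all genes, and the same 2 of 8 had groups that did not overlap, beside 9.43%. Over all genes the edgeR count was 0, limma-voom's was also 0, and DESeq2's was 15.

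Znrf3 averaged 12.2 ± 1.11 CPM in MAN@SKI II libraries and 8.35 ± 1.05 CPM in Model libraries (SD, n = 3 each), higher in 3 of 3 treated libraries than in any Model library. Its log2 fold change was 0.54 ± 0.14 (SE; 95% interval 0.25 to 0.84), with an unadjusted p of 0.00199 and an adjusted p of 0.914 by edgeR's quasi-likelihood test. Its adjusted p ranged from 0.290 to 0.979 over the alternative analyses. Lgr6 averaged 21.1 ± 1.10 CPM in MAN@SKI II libraries and 17.6 ± 1.65 CPM in Model libraries, also above in 3 of 3 treated libraries. Its log2 fold change was 0.27 ± 0.10 (SE; 95% interval 0.05 to 0.49), with an unadjusted p of 0.0224 and an adjusted p of 0.914 by the same test. The unadjusted p of Lgr6 by this test was 0.073 without MAN@SKI II replicate 3, 0.058 without Model replicate 2 and 0.093 without Model replicate 3. It stayed under 0.05 with any other library left out. Without MAN@SKI II replicate 2 the log2 fold changes were 0.62 for Znrf3 and 0.27 for Lgr6. Neither difference passed the adjustment.

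The remaining 6 tested members had overlapping groups in treated against untreated BTBR mice, with log2 fold changes from -0.30 ± 0.26 (SE) for Rnf43 to 0.07 ± 0.15 (SE) for Rspo3, and adjusted p from 0.914 to 0.988 by edgeR's quasi-likelihood test. The interval was narrowest for Lgr4, from -0.26 to 0.09, and widest for Rspo1, from -1.05 to 0.88. Without MAN@SKI II replicate 2, Rspo3 was at -0.08 and Rspo1 at 0.16, both with the opposite sign to the value over all libraries.

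Model libraries enter both the treatment and the strain comparison, and Con libraries enter both BTBR comparisons, so the values of a gene in different comparisons are not independent. Side by side, Znrf3 stood at 0.54 in MAN@SKI II against Model, -0.54 in Model against Con and 0.00 in MAN@SKI II against Con. Lgr6 stood at 0.27, 2.31 and 2.58 in the same comparisons, and Rnf43 at -0.30, 0.98 and 0.68. Over the 8 tested members the median log2 fold change was -0.07 in MAN@SKI II against Model, 0.11 in Model against Con and 0.17 in MAN@SKI II against Con, while the median of all tested genes was 0.00 in each. Groups did not overlap for 4 of 8 members in Model against Con (Lgr6, Rspo3, Znrf3 and Rnf43), beside 32.3% of all genes. Against Con, the MAN@SKI II group was apart for 4 of 8 (Lgr4, Lgr6, Rspo2 and Rnf43), beside 27.3%.

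**Figure D3:**
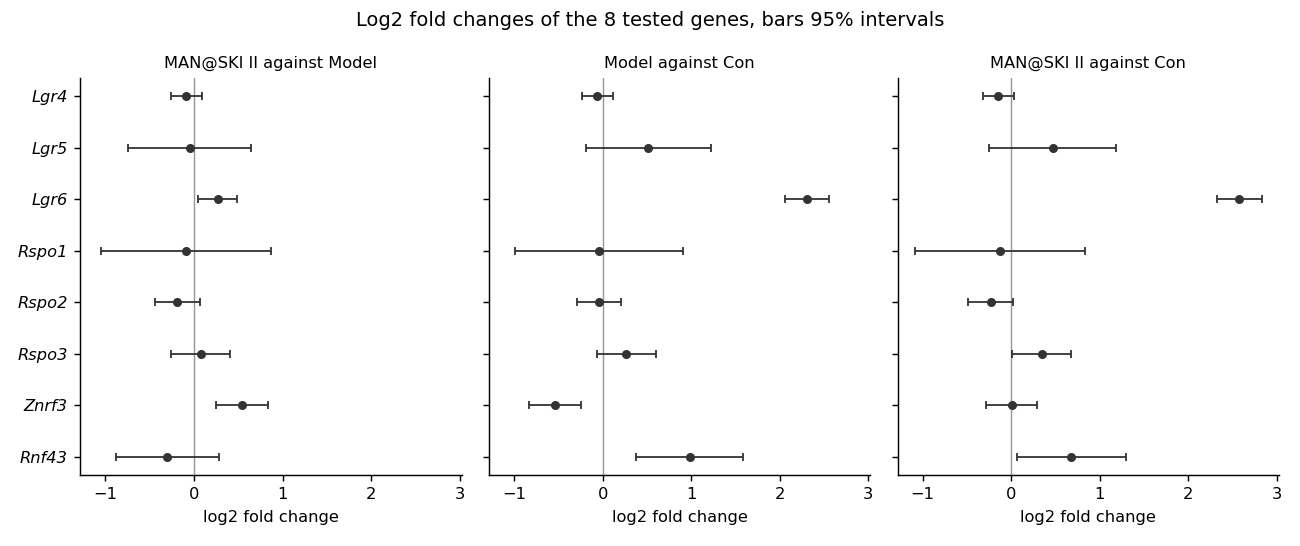
Log2 fold change (horizontal axis, the same in each panel) of the 8 tested genes in MAN@SKI II against Model, Model against Con and MAN@SKI II against Con, with bars for the 95% interval. Lgr6 is at 2.31 in Model against Con and 2.58 in MAN@SKI II against Con, while Znrf3 is at 0.54 in MAN@SKI II against Model and -0.54 in Model against Con.

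The rest of the Wnt pathway was taken from 6 lists of 91 genes, of which 72 passed the filter on low counts. In MAN@SKI II against Model 0 of 72 were called at an adjusted p under 0.05 by edgeR's quasi-likelihood test, beside 0% of all genes, and 2 of 72, Apcdd1 and Sfrp5, had an unadjusted p under 0.05, beside 4.82%. Sfrp5 had 0 to 3 counts in each BTBR library and passed the filter only through its Con libraries, so its p in this comparison is not interpreted. In Model against Con 5 of 72, or 6.94%, were called, beside 7.64% of all genes: 1 higher, beside 3.11%, and 4 lower, beside 4.52%. Of the same 72 genes 8, or 11.1%, were called in MAN@SKI II against Con, beside 8.13%: 3 higher, beside 3.43%, and 5 lower, beside 4.70%. The median log2 fold change of the 72 genes was -0.05, 0.02 and 0.02 in these comparisons, in that order. The counts were small and moved with single libraries: in Model against Con the count was 2 without Model replicate 1 or any 1 of the Con replicates, 3 without Model replicate 2 or 3, and 8 without MAN@SKI II replicate 2. The count in MAN@SKI II against Con was 2 without Con replicate 2, 3 without Con replicate 3, and 5 without MAN@SKI II replicate 1, Model replicate 1 or 3, or Con replicate 1.

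Neither the Wnt ligands nor their receptors had a gene called by edgeR's quasi-likelihood test in any of the 3 comparisons, with 15 of 21 ligand-list and 15 of 17 receptor-list genes tested. Of the 17 alternative analyses of MAN@SKI II against Con, 2 called the ligand Wnt5a, DESeq2 among them, and 1 called the receptor Fzd4. Lrp6, the co-receptor of Frizzled proteins, averaged 68.4 ± 2.32 CPM in MAN@SKI II, 70.7 ± 3.24 CPM in Model and 68.8 ± 1.23 CPM in Con libraries (SD, n = 3 each). Its log2 fold change of Model against Con was 0.04 ± 0.06 (SE), with an adjusted p of 0.823 by edgeR's quasi-likelihood test. Among the 20 genes of the beta-catenin core, all tested, Gsk3a, a kinase that marks beta-catenin for destruction, rose in both BTBR groups. Gsk3a averaged 290.0 ± 9.67 CPM in MAN@SKI II, 286 ± 6.61 CPM in Model and 249 ± 6.06 CPM in Con libraries, with adjusted p of 0.0301 and 0.0458 against Con by edgeR's quasi-likelihood test, and kept its call in 6 of 17 alternative analyses in each comparison. Pygo1, a nuclear co-activator of beta-catenin, was higher in MAN@SKI II than in Con, at 100.3 ± 9.63 CPM against 82.3 ± 0.691 CPM (adjusted p 0.0371 by edgeR, called in 9 of 17 alternatives). In Model it was nearly as high, at 99.0 ± 2.72 CPM (adjusted p 0.0515 against Con by edgeR, called in 5 of 17 alternatives). The Pygo1 log2 fold change of MAN@SKI II against Model was 0.02 ± 0.07 (SE). Ctnnb1, which encodes beta-catenin, varied within every group, at 277 to 407 CPM in MAN@SKI II, 291 to 405 CPM in Model and 269 to 440 CPM in Con libraries, and was not called.

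Of the target genes of the pathway, 12 of 15 were tested. Ccnd1, which encodes the cell cycle protein cyclin D1, fell in both BTBR groups and kept its call in all 17 alternative analyses of each comparison. It had 36.8, 30.3 and 32.3 CPM in MAN@SKI II libraries, 35.1, 38.2 and 34.8 CPM in Model, and 54.3, 55.9 and 55.4 CPM in Con libraries. All 6 BTBR libraries lay below the 3 Con libraries, with a log2 fold change of -0.74 ± 0.09 (SE) in MAN@SKI II against Con and -0.61 ± 0.09 (SE) in Model against Con (adjusted p 3.64e-04 and 0.00113 by edgeR's quasi-likelihood test). Nkd1, an inhibitor that Wnt signalling induces, was lower in MAN@SKI II, at 9.94 ± 0.358 CPM, and in Model, at 10.7 ± 0.626 CPM, than in Con, at 13.9 ± 0.866 CPM, with adjusted p of 0.0150 and 0.0472 against Con by edgeR, and kept its call in 15 and 5 of 17 alternatives. Apcdd1, a membrane-bound Wnt inhibitor, was lower in MAN@SKI II than in Con, at 32.4 ± 3.26 CPM against 41.5 ± 1.90 CPM (adjusted p 0.0348 by edgeR, called in 9 of 17 alternatives). It stood between them in Model, at 37.8 ± 1.96 CPM. Its log2 fold change was -0.22 ± 0.09 (SE) in MAN@SKI II against Model and -0.14 ± 0.09 (SE) in Model against Con, and neither was called. Axin2, a target gene widely used to read beta-catenin activity, was not called: it averaged 22.3 ± 0.890 CPM in MAN@SKI II, 24.3 ± 1.65 CPM in Model and 24.5 ± 3.50 CPM in Con libraries, with an adjusted p of 0.969 for Model against Con by edgeR. Lef1, a TCF/LEF factor, averaged 5.54 ± 0.595 CPM in MAN@SKI II, 6.39 ± 0.961 CPM in Model and 4.94 ± 0.668 CPM in Con libraries and was not called either. Lef1 is also among the thalamic and habenular markers given below.

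The secreted inhibitors, which bind Wnt proteins or their co-receptors outside the cell, had 9 of 13 genes tested. Frzb, a decoy with a Frizzled-like domain, fell in MAN@SKI II to 25.0 ± 2.32 CPM and in Model to 25.4 ± 2.31 CPM, against 33.4 ± 2.03 CPM in Con libraries (adjusted p 0.0262 and 0.0357 by edgeR's quasi-likelihood test), and was called in 13 and 11 of 17 alternatives. Sfrp5, of the same family, had 0, 0 and 1 counts in MAN@SKI II, 3, 2 and 2 counts in Model, and 20, 24 and 18 counts in Con libraries. Its ratio to Con was 0.0175 in MAN@SKI II (95% exact counting interval 4.36e-04 to 0.101) and 0.111 in Model (0.0429 to 0.243), intervals that cover counting error only, and it was called lower in both (adjusted p 4.29e-04 and 0.00186 by edgeR) and in the 16 of 17 alternatives of each in which it passed the filter on low counts. It passed that filter only through the Con libraries, the group in which it was high. Sfrp4 was higher in MAN@SKI II than in Con, at 3.97 ± 1.33 CPM against 1.64 ± 0.271 CPM (adjusted p 0.0196 by edgeR, called in 15 of 17 alternatives). It stood between them in Model, at 2.97 ± 0.754 CPM (adjusted p 0.112 against Con by edgeR). The Sfrp4 log2 fold change of MAN@SKI II against Model was 0.41 ± 0.27 (SE) and was not called.

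Among markers of tissue next to the hippocampus, those of the choroid plexus had a lower summed level in both BTBR groups than in Con. The summed level of 12 choroid plexus markers was 150 to 472 CPM in MAN@SKI II, 128 to 460 CPM in Model and 1190 to 3190 CPM in Con libraries, all 12 were detected, and 6 were called lower in each BTBR group against Con. That of the 10 thalamic and habenular markers was 177 to 214 CPM in MAN@SKI II, 180 to 203 CPM in Model and 157 to 164 CPM in Con libraries, with Gbx2 at 0 and 1 marker called higher in each BTBR group against Con, Rora in MAN@SKI II and Calb2 in Model. Ependymal markers summed to 19.5 to 28.8 CPM in MAN@SKI II, 17.6 to 27.0 CPM in Model and 26.5 to 38.1 CPM in Con libraries. Meningeal fibroblast markers summed to 133 to 179 CPM in MAN@SKI II, 119 to 222 CPM in Model and 140 to 208 CPM in Con libraries, and endothelial and mural markers to 293 to 360 CPM, 341 to 348 CPM and 342 to 377 CPM in the same groups, with Rgs5 called lower in both BTBR groups. Of the hippocampal neuron markers, Spink8 and C1ql2 were called lower in both BTBR groups against Con. No ependymal or meningeal fibroblast marker was called in any comparison. Over all genes, 4.52% were called lower and 3.11% higher in Model against Con. In MAN@SKI II against Con these shares were 4.70% and 3.43%, so a list with 1 marker called is not set apart from them. The part of these markers in the strain differences of Lgr6, Znrf3, Rnf43, Sfrp5 and the other pathway genes was not tested. Sostdc1, which is both a choroid plexus marker and a secreted Wnt inhibitor, had 1.44, 1.56 and 4.67 CPM in MAN@SKI II libraries, 0.78, 6.38 and 1.51 CPM in Model libraries, and 17.8, 11.7 and 7.46 CPM in Con libraries. Sostdc1 was not called by edgeR's quasi-likelihood test, and was called in 1 of 17 alternatives of MAN@SKI II against Con and in 2 of 17 of Model against Con, limma-voom being 1 of these 2. Within the BTBR libraries, the summed choroid plexus level was highest in MAN@SKI II replicate 3 and Model replicate 2. Lgr6 in these libraries, at 22.2 and 17.2 CPM, was the highest and the middle value of its group. A relation of Lgr6 to the choroid plexus level was not tested.

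**Figure D4:**
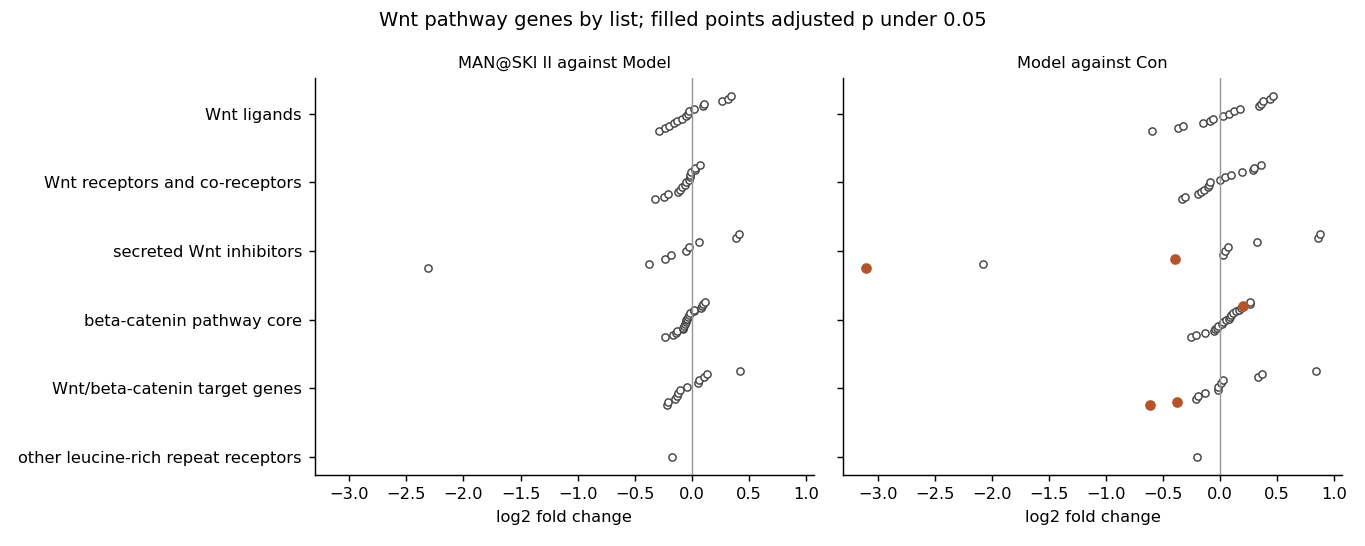
Log2 fold change (horizontal axis, the same in both panels) of the 72 tested Wnt pathway genes by list, in MAN@SKI II against Model and in Model against Con, 1 point per gene, sorted within each list. Filled points passed an adjusted p of 0.05: none in the left panel and 5 in the right panel, of which Sfrp5, on few counts, lies farthest to the left.

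No gene near Lgr6 was called higher with it. Of 30 genes that start within 500 kb of the start of Lgr6 on GRCm39, 12 were tested, and 2 were called in Model against Con, both lower. Rnpep, an aminopeptidase gene 179 kb away, averaged 37.1 ± 0.942 CPM in MAN@SKI II, 34.8 ± 1.41 CPM in Model and 43.3 ± 1.80 CPM in Con libraries (log2 fold change of Model against Con -0.31 ± 0.07, SE, adjusted p 0.0226 by edgeR's quasi-likelihood test). Shisa4, a transmembrane protein gene 270 kb away, averaged 48.5 ± 2.09 CPM in MAN@SKI II, 48.2 ± 1.70 CPM in Model and 81.2 ± 3.02 CPM in Con libraries (log2 fold change of Model against Con -0.75 ± 0.07, SE, adjusted p 5.87e-05 by the same test). The nearest tested gene, Arl8a, chosen for its position at 41.5 kb, had a log2 fold change of 0.08 ± 0.13 (SE). The largest increase of the 12 was that of Ube2t, 143 kb away, at 0.90 ± 0.31 (SE). Ube2t was scarce, at 1.34 CPM in MAN@SKI II, 1.25 CPM in Model and 0.668 CPM in Con libraries. It was not called (adjusted p 0.118 by edgeR's quasi-likelihood test). No listed gene overlaps Lgr6. Over all 9 members 9 of 109 tested neighbours, or 8.26%, were called in Model against Con, beside 7.64% of all genes, and 0 of 109 in MAN@SKI II against Model.

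**Figure D5:**
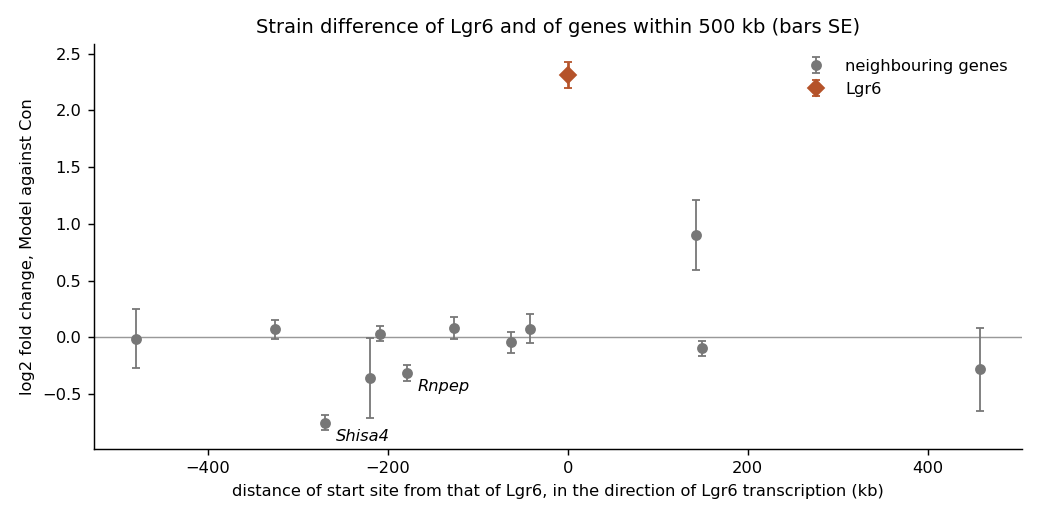
Log2 fold change of Model against Con (vertical axis, bars SE) for Lgr6 and the 12 tested genes that start within 500 kb, against the distance of each start from that of Lgr6 along the direction of Lgr6 transcription (horizontal axis, kb). Lgr6 stands at 2.31, and the named genes Shisa4 and Rnpep, at -0.75 and -0.31, are the called neighbours.

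The profile of Lgr6 over the 9 libraries had close matches elsewhere in the genome. Likeness was measured over 13706 protein-coding genes averaging 1 CPM or more, as the root mean square difference of log2 CPM after centring each gene on its own mean. The most like were Pla2g4e at 0.23, Serpina3n at 0.28, Cfap54 at 0.31, Atp6v1c2 at 0.32 and Mamdc2 at 0.33, against a median of 1.15 over all these genes, and they lie on chromosomes 2, 12, 10, 12 and 19. Pla2g4e, a cytosolic phospholipase A2 gene, averaged 32.4 ± 1.43 CPM in MAN@SKI II, 28.9 ± 3.13 CPM in Model and 7.49 ± 0.268 CPM in Con libraries (SD, n = 3 each). Serpina3n, a serine protease inhibitor gene, averaged 227 ± 26.4 CPM in MAN@SKI II, 214 ± 9.86 CPM in Model and 60.0 ± 1.88 CPM in Con libraries. All 5 were high in both BTBR groups and low in Con, the pattern for which Lgr6 was chosen, and the likeness is given as a description with no test.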

How the data were processed

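The deposited table lists raw counts and FPKM per gene for hippocampal poly(A) RNA of 9 mice, per the file headers and the labels' protocols. The submitters' processing notes name HISAT2 2.0.4, StringTie 1.3.3b, Bowtie2, edgeR 3.2.0 and GRCm39. Their roles, the counting program, its strand setting and the annotation release were not given in the sources used here. The authors' FPKM values were used only to compare levels between genes.

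Counts were fitted for all 9 libraries with edgeR 4.0.16 in R 4.3.3 (TMM factors, filterByExpr, robust quasi-likelihood, group as the only term), with p-values adjusted by Benjamini-Hochberg over 17550 genes and genes called under 0.05. CPM values use TMM-scaled library sizes, and log2 profiles a prior count of 2. DESeq2 1.42.0, limma 3.58.1 (voom), other scalings and filters, the 6 compared libraries alone, a replicate block and each library left out were alternatives. The pipeline was tested on simulated data.

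The members and lists were chosen with earlier results of these data known. Named are all members, called Wnt list genes (up to 6 per list and direction) with Ctnnb1, Axin2, Lrp6 and Lef1, the 5 genes most like Lgr6, and up to 4 called neighbours of Lgr6. The labels call replicates biological and name the vehicle as normal saline in one field and PBS in another. Replicates of a group differed by more than sampling noise (chi-square per degree of freedom 7.90 to 26.5). A BLAST 2.17.0 search of GENCODE M21 transcripts found 0 near-identical copies of the 9 genes (97% identity over 150 bases and 50% of the shorter transcript). Promoters are RefSeq sequences on GRCm38.p6, matched by symbol.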

Additional observations from a re-analysis of the deposited data

How the results depend on the processing

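In MAN@SKI II against Model, the call of 0 of 8 members and of 0 Wnt list genes held in all 17 alternative analyses, while the count over all genes, 0, was 1 with no scaling factors, 1 with no filter, 1 with the 6 libraries alone and 15 with DESeq2, and 0 to 9 with 1 library left out. In Model against Con the 1340 called genes were 2073 with the 6 libraries alone and 830 to 2226 with 1 library left out, and the 5 called Wnt list genes were 3 with no filter and 2 to 8 with 1 library left out. For MAN@SKI II against Con the 1427 called genes were 857 to 1633 with 1 library left out, and the 8 called Wnt list genes were 5 with the 6 libraries alone and 2 to 9 with 1 library left out. The cause was not tested.

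Same-numbered libraries did not deviate together (correlation of deviations from the group means -0.06 to 0.05 over 9 pairs of libraries), so the numbers were not taken to pair the mice. With the replicate number as a block, 1 gene was called in MAN@SKI II against Model, 1044 in Model against Con, where 2 Wnt list genes were called, and 1134 in MAN@SKI II against Con.

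For MAN@SKI II against Model, leaving out 1 library turned the sign of 3 members that were not called: Lgr5 ran from -0.23 to 0.15, Rspo1 from -0.30 to 0.16 and Rspo3 from -0.081 to 0.21. Lgr6 ran from 0.21 to 0.34 and Znrf3 from 0.48 to 0.65. Depth limits Rspo1, Rspo4, Lgr5 and Rnf43 most, all of which had at most 66 counts in any library.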

Other observations

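The ratio of the FPKM of Znrf3 to that of Rnf43 within each library was chosen after the values were seen and is given with no test. It was 6.66, 4.60 and 4.62 in MAN@SKI II libraries, 2.25, 2.40 and 4.70 in Model libraries, and 9.25, 6.16 and 10.4 in Con libraries. The 3 Con libraries lay above the 3 Model libraries, and Model replicate 3 lay within the range of the MAN@SKI II libraries. The summed FPKM of both ligases was 1.17 to 1.44 in MAN@SKI II, 0.980 to 1.07 in Model and 1.16 to 1.37 in Con libraries.

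Rxfp1, a relaxin receptor and the 1 of 5 other leucine-rich repeat G protein-coupled receptors that passed the filter on low counts, had 21.1, 7.71 and 17.3 CPM in MAN@SKI II libraries, 16.1, 13.1 and 22.9 CPM in Model libraries, and 25.9, 15.7 and 18.5 CPM in Con libraries. The ranges overlapped in all 3 comparisons, with a log2 fold change of -0.17 ± 0.38 (SE) in MAN@SKI II against Model and -0.20 ± 0.38 (SE) in Model against Con.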
